A study of Mus musculus with 16 samples.

Results

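The genes that make prostaglandins and leukotrienes were followed in mouse monocytes cultured with or without IFN-γ plus CD40L. Members were chosen by symbol. They are Pla2g4a, which acts before both sides, Ptgs1, Ptgs2, Ptges and Tbxas1 on the prostanoid side and Alox5, Alox5ap, Lta4h and Ltc4s on the leukotriene side. Of these 9 genes, 8 are among the 13085 genes in the deposited table, and all 8 passed the filter on low values. Ltc4s, which encodes leukotriene C4 synthase, is not listed in the table and was not analysed here.

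Eicosanoids are lipid mediators made from arachidonic acid. Cytosolic phospholipase A2, encoded by Pla2g4a, frees the fatty acid from membranes. The cyclooxygenases encoded by Ptgs1 and Ptgs2 turn it into prostaglandin H2, which is the substrate of prostaglandin E synthase (Ptges) and of thromboxane A synthase (Tbxas1). In the other branch 5-lipoxygenase (Alox5), which works with its activating protein (Alox5ap), makes leukotriene A4, and leukotriene A4 hydrolase (Lta4h) converts this to leukotriene B4. Monocytes and macrophages are known for making products of both branches, and Ptgs2 is known as the inducible cyclooxygenase of inflamed tissue.

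The cells came from C57BL/6 mice that were NFAM1+/+ or NFAM1-/-, the latter carrying a CRISPR deletion of exons 2 and 3 of Nfam1 in every cell, and both genotypes were bred from NFAM1+/- parents. Monocytes were left without a stimulus or given IFN-γ plus MegaCD40L at 1 µg/mL, a multimeric form of the ligand of CD40, for 6 or 24 h. The labels call the cells monocytes of peripheral blood leukocytes, whereas the methods describe enrichment from bone marrow, and these sources also name different doses of IFN-γ. There are 8 groups of 2 libraries, and the age of the mice is not given. A legend in the paper names 4 NFAM1+/+ and 6 NFAM1-/- mice for this experiment, against 8 libraries of each genotype, so some libraries of different conditions may share mice. No source ties a library to a mouse, so the fit treated the libraries as independent, and its p-values measure the spread between them, which may be technical. For 4 libraries at 24 h, 1 in each combination of genotype and stimulus, the genotype in the title and the genotype tag differ. The title was used, and the genotype results of the members that rest on it are also given by the tag and without these libraries.

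Depth was high, with 48295939 to 88514341 reads on the listed genes in each library, and was not the limit for most members. Values are CPM, the reads of a gene scaled for sequencing depth, on the authors' scaling of library size, under which the reads of a library summed to 0.756 to 0.788 of the scaled size without stimulus, to 1.24 to 1.32 with the stimulus at 6 h and to 0.970 to 0.997 with it at 24 h. All 8 monocyte markers were listed and summed to 3520 to 7299 CPM. Of the 10 neutrophil markers, all 10 were listed, and they summed to 873 to 1243 CPM in unstimulated libraries at 24 h and to 291 to 419 CPM elsewhere. All 6 dendritic cell markers summed to 141 to 303 CPM in unstimulated libraries at 24 h and to 34.5 to 67.0 CPM elsewhere. All 8 basophil and mast cell markers summed to 194 to 249 CPM with the stimulus at 6 h and to 10.4 to 73.5 CPM elsewhere. Most of the former sum was Kit (mean 99.9 CPM) and Hdc (90.7 CPM). Prss34 came next at 6.54 to 38.1 CPM, which overlapped its 3.66 to 22.3 CPM without stimulus at 6 h. Of the other lists, 5 of 8 megakaryocyte and platelet markers summed to 2.83 to 8.89 CPM, 4 of 5 eosinophil markers to 34.6 to 91.4 CPM in unstimulated libraries at 24 h and to 5.19 to 63.2 CPM elsewhere, 2 of 6 B cell markers to 6.54 to 17.4 CPM there and to 1.04 to 4.79 CPM elsewhere, 4 of 6 erythroid markers to 0.879 to 43.2 CPM and 1 of 6 T and NK cell markers to 0.00443 to 3.12 CPM. In bulk RNA, fewer cells of a type and less RNA per cell cannot be told apart. Nfam1, whose deletion removes only exons 2 and 3, was counted over the whole gene and stood without stimulus at 6 h at 432 and 408 CPM in NFAM1+/+ and at 299 and 321 CPM in NFAM1-/- libraries. With the stimulus at 6 h it stood at 133 and 129 CPM in NFAM1+/+ and at 135 and 127 CPM in NFAM1-/- libraries. By title at 24 h it stood at 463 and 495 CPM in NFAM1+/+ against 441 and 391 CPM in NFAM1-/- libraries without stimulus, and at 271 and 252 CPM against 201 and 223 CPM with it. By title the genotypes therefore overlapped only with the stimulus at 6 h, whereas by the tag they overlapped in both conditions at 24 h.

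The promoters of 4 members are shown first, those of Pla2g4a and Ptgs2, whose products act in succession and which rose most of the members, that of Ptges, which acts after them, and that of Alox5, which fell. Pla2g4a and Ptgs2 are near neighbours on mouse chromosome 1. In GENCODE vM21 on GRCm38, Pla2g4a spans chr1:149829618-149961290 on the minus strand and Ptgs2 spans chr1:150100031-150108227 on the plus strand. Their starts face each other at a distance of 139 kb, with 3 annotated genes between them, of which 0 code for protein. The submitters' processing notes name a later build, GRCm39, so positions here are those of the annotation and not of the deposited values. RefSeq windows on GRCm38.p6 from 250 bases before to 50 bases after a start were found for 8 of the 9 members, with 2 windows for Pla2g4a and none for Alox5ap. Shown, 5′ to 3′ on the strand of the gene, are Ptgs2 (chr1:150099781-150100080, plus strand), the Pla2g4a window at the outer gene start (chr1:149961241-149961540, minus strand), Ptges (chr2:30903248-30903547, minus strand) and Alox5 (chr6:116461129-116461428, minus strand). Capitals mark matches to a core letter pattern on either strand.
Ptgs2: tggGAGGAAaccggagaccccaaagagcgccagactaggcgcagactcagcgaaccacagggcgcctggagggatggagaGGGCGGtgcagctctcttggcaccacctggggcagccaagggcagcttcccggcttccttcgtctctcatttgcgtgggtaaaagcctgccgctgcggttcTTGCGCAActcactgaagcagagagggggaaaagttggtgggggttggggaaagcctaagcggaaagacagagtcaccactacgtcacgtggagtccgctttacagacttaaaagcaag
Pla2g4a: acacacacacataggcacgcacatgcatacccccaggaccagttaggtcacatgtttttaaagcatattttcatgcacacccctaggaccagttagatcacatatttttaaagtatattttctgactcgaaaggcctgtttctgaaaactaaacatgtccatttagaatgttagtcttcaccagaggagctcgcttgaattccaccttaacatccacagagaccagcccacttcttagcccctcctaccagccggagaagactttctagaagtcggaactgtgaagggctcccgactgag
Ptges: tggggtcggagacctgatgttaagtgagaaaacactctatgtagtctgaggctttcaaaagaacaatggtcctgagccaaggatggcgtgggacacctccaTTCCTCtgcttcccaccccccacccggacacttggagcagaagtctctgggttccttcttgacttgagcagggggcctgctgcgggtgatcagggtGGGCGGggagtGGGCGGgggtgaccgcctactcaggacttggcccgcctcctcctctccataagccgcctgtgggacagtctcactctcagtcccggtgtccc
Alox5: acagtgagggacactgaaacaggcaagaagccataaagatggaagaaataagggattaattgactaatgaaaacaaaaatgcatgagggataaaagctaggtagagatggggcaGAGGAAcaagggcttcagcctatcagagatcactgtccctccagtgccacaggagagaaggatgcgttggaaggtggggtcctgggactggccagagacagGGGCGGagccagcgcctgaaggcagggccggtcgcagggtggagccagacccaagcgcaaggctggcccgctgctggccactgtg

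The patterns searched on both strands were GAGGAA for PU.1, GGGCGG for Sp1, TTGNNCAA for C/EBP, TGANTCA for AP-1, TGACGTCA for the cyclic AMP response element, TTCNNNGAA for the interferon-γ activated site, TATAAA for the TATA box, and, by name, the interferon-stimulated response element and the NF-kB consensus. The Ptgs2 window held a C/EBP pattern from base -69 to -62, counted from the start, an Sp1 pattern from -170 to -165 and a PU.1 pattern from -247 to -242. The C/EBP pattern occurred in 6.4% of the 32851 promoter windows of the mouse and the Sp1 pattern in 35.7%. The Ptges window held the Sp1 pattern from -53 to -48 and from -42 to -37, and the Alox5 window held it from -35 to -30. A PU.1 pattern, present in 28.3% of all windows, was found in 7 of the 9 windows of the members, those of Ptgs2, Ptges, Ptgs1, Tbxas1, Alox5, Lta4h and Ltc4s. The Pla2g4a window shown held none of the patterns. The NF-kB consensus and the patterns of the interferon-γ activated site, the interferon-stimulated response element and the cyclic AMP element, which occur in 8.46%, 8.3%, 3.44% and 1.79% of all windows, were in 0 of the 9 windows, which says only that these letters are not there. The AP-1 pattern (7.81% of windows) was in 1 of the 9, that of Tbxas1, and the TATA pattern (13.6%) was in 2, those of Tbxas1 and of the other Pla2g4a start.

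The effect of the stimulus at 6 h was tested with limma on the log2 CPM of all 12782 genes past the filter, and a gene was called at a Benjamini-Hochberg adjusted p under 0.05 and a change of at least 2-fold. All 8 members tested were called, 4 higher (Ptgs2, Pla2g4a, Tbxas1 and Ptges) and 4 lower (Alox5, Alox5ap, Lta4h and Ptgs1) with the stimulus. The background was wide, since 39.7% of all genes tested were called. The median log2 fold change was 0.10 over the members and -0.12 over all genes tested. At 24 h the stimulus was called for 6 of the 8 members, with Ptgs2, Pla2g4a and Ptges higher and Ptgs1, Alox5 and Alox5ap lower, against 33.3% of all genes. The median was -0.77 over the members at 24 h and 0.01 over all genes. Every tested member on the leukotriene side was lower with the stimulus at both times, with Lta4h at 24 h short of 2-fold. Pla2g4a, which acts before both sides, was higher at both times.

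**Figure D1:**
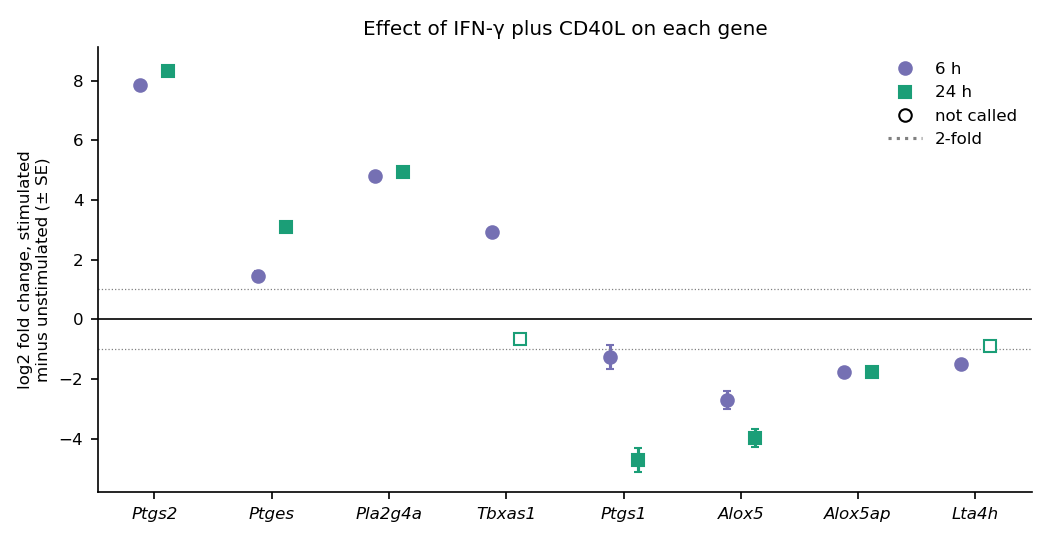
Log2 fold change of each member, stimulated minus unstimulated, with its standard error, at 6 h (circles) and 24 h (squares), each over 8 libraries. Filled symbols passed both thresholds and the dotted lines mark 2-fold. Ptgs2 rose by 7.85 and 8.34, and Tbxas1 lay at 2.93 at 6 h and at -0.65 at 24 h.

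Ptgs2, the inducible cyclooxygenase, had the largest response of the members at both times. Without stimulus at 6 h it stood at 6.52 and 5.65 CPM in NFAM1+/+ and at 4.04 and 2.89 CPM in NFAM1-/- libraries. With the stimulus at 6 h the values were 1223 and 1172 CPM in NFAM1+/+ and 884 and 960 CPM in NFAM1-/- libraries. Stimulated and unstimulated libraries did not overlap in either genotype, and the log2 fold change was 7.85 ± 0.11 (SE; 231-fold; adjusted p = 6.28e-16). At 24 h, by title, unstimulated libraries stood at 3.41 and 3.66 CPM (NFAM1+/+) and 1.77 and 2.49 CPM (NFAM1-/-), and stimulated libraries at 966 and 991 CPM and at 739 and 846 CPM. The log2 fold change at 24 h was 8.34 ± 0.11 (323-fold; adjusted p = 7.51e-16). The level with the stimulus was thus held at 24 h, where it differed from that at 6 h by -0.26 ± 0.11 on the log2 scale (adjusted p = 0.0523). This small difference turned to 0.12 when reads were divided by the plain library total and to 0.23 with quantile normalization.

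Pla2g4a, which supplies the arachidonic acid, separated the conditions as clearly as Ptgs2 did. It stood at 7.76, 10.1, 9.35 and 8.99 CPM in the 4 unstimulated libraries at 6 h and at 267, 241, 252 and 253 CPM in the 4 stimulated ones. At 24 h it stood at 12.1, 10.3, 9.40 and 6.36 CPM without and at 275, 285, 289 and 295 CPM with the stimulus. No library of one condition came near the other, and the log2 fold changes were 4.81 ± 0.11 at 6 h (28.1-fold; adjusted p = 4.30e-14) and 4.95 ± 0.11 at 24 h (30.8-fold; adjusted p = 6.48e-14). The response differed between the times by 0.13 ± 0.15 (adjusted p = 0.46). Over the alternative ways of processing given below, that value ranged from -0.0078 to 0.59 (smallest adjusted p = 0.0051).

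Ptges, the inducible microsomal prostaglandin E synthase, rose at 6 h and was higher again at 24 h. At 6 h it stood at 12.9 and 11.2 CPM (NFAM1+/+) and 7.80 and 8.34 CPM (NFAM1-/-) without stimulus, and at 40.9 and 28.2 CPM and at 19.8 and 24.0 CPM with it. At 24 h by title it stood at 6.38 and 8.61 CPM (NFAM1+/+) and 5.58 and 5.45 CPM (NFAM1-/-) without stimulus, and at 73.0 and 68.5 CPM and at 56.7 and 31.8 CPM with it. The lowest stimulated library lay above the highest unstimulated one at each time. The log2 fold change grew from 1.47 ± 0.17 at 6 h (adjusted p = 1.80e-06) to 3.10 ± 0.17 at 24 h (adjusted p = 6.45e-10). The difference between the times was 1.63 ± 0.24 (adjusted p = 3.27e-05), and it was called. The call at 6 h was lost when reads were divided by the plain library total, where the log2 fold change was 0.74.

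Tbxas1, thromboxane A synthase, was higher with the stimulus at 6 h and lower with it at 24 h. At 6 h it stood at 8.20, 7.64, 9.01 and 10.5 CPM without and at 76.6, 56.2, 66.5 and 70.0 CPM with the stimulus. At 24 h the unstimulated libraries stood at 89.3, 79.4, 70.3 and 78.3 CPM and the stimulated ones at 38.3, 47.7, 52.0 and 67.3 CPM. The unstimulated libraries were thus the lowest at 6 h and the highest at 24 h, with no overlap with stimulated libraries at either time. The log2 fold change was 2.93 ± 0.11 at 6 h (adjusted p = 1.02e-11) and -0.65 ± 0.11 at 24 h (adjusted p = 1.09e-04), the latter under 2-fold. The difference between the times was -3.58 ± 0.16 (adjusted p = 5.65e-10). Without stimulus Tbxas1 rose 9.0-fold from 6 to 24 h (log2 fold change 3.17 ± 0.11, adjusted p = 3.75e-11), while with the stimulus the difference was -0.41 ± 0.11 (adjusted p = 0.00396), under 2-fold. The antisense gene Gm42962 shares 144 exon bases with Tbxas1, and the library kit did not mark strand, so their reads cannot be told apart there.

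Ptgs1, the cyclooxygenase made in many resting cells, was scarce at 6 h and rose by 24 h in culture without stimulus. At 6 h it stood at 0.748, 0.329, 1.30 and 1.04 CPM without stimulus (20 to 149 reads) and at 0.264, 0.688, 0.138 and 0.403 CPM with it (8 to 36 reads). These ranges overlapped. At 24 h it stood at 7.55, 6.63, 7.63 and 6.89 CPM without stimulus and at 0.244, 0.232, 0.278 and 0.345 CPM with it. Among all the conditions the unstimulated libraries at 24 h were far above the rest, 9.42-fold over those at 6 h (log2 fold change 3.24 ± 0.41, adjusted p = 9.65e-06). The stimulus effect was -4.72 ± 0.41 at 24 h (adjusted p = 1.04e-07) and -1.26 ± 0.41 at 6 h (adjusted p = 0.0111), and the difference between the times was -3.46 ± 0.57 (adjusted p = 1.11e-04). The call at 6 h was weak. It was lost in a fit of the 8 libraries at 6 h alone (adjusted p = 0.0506), with a pseudocount of 1 CPM (log2 fold change -0.42), and without library 1, 26 or 11 (-0.97, -0.92 and -0.88, adjusted p = 0.0543, 0.0565 and 0.0572). Within NFAM1+/+ the effect at 6 h was -0.22 ± 0.57 (adjusted p = 0.75) and within NFAM1-/- it was -2.31 ± 0.57 (adjusted p = 0.0026), but the difference between the genotypes was not called (-2.09 ± 0.81, adjusted p = 0.51). Gm43621, on the other strand, shares 148 exon bases with Ptgs1.

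**Figure D2:**
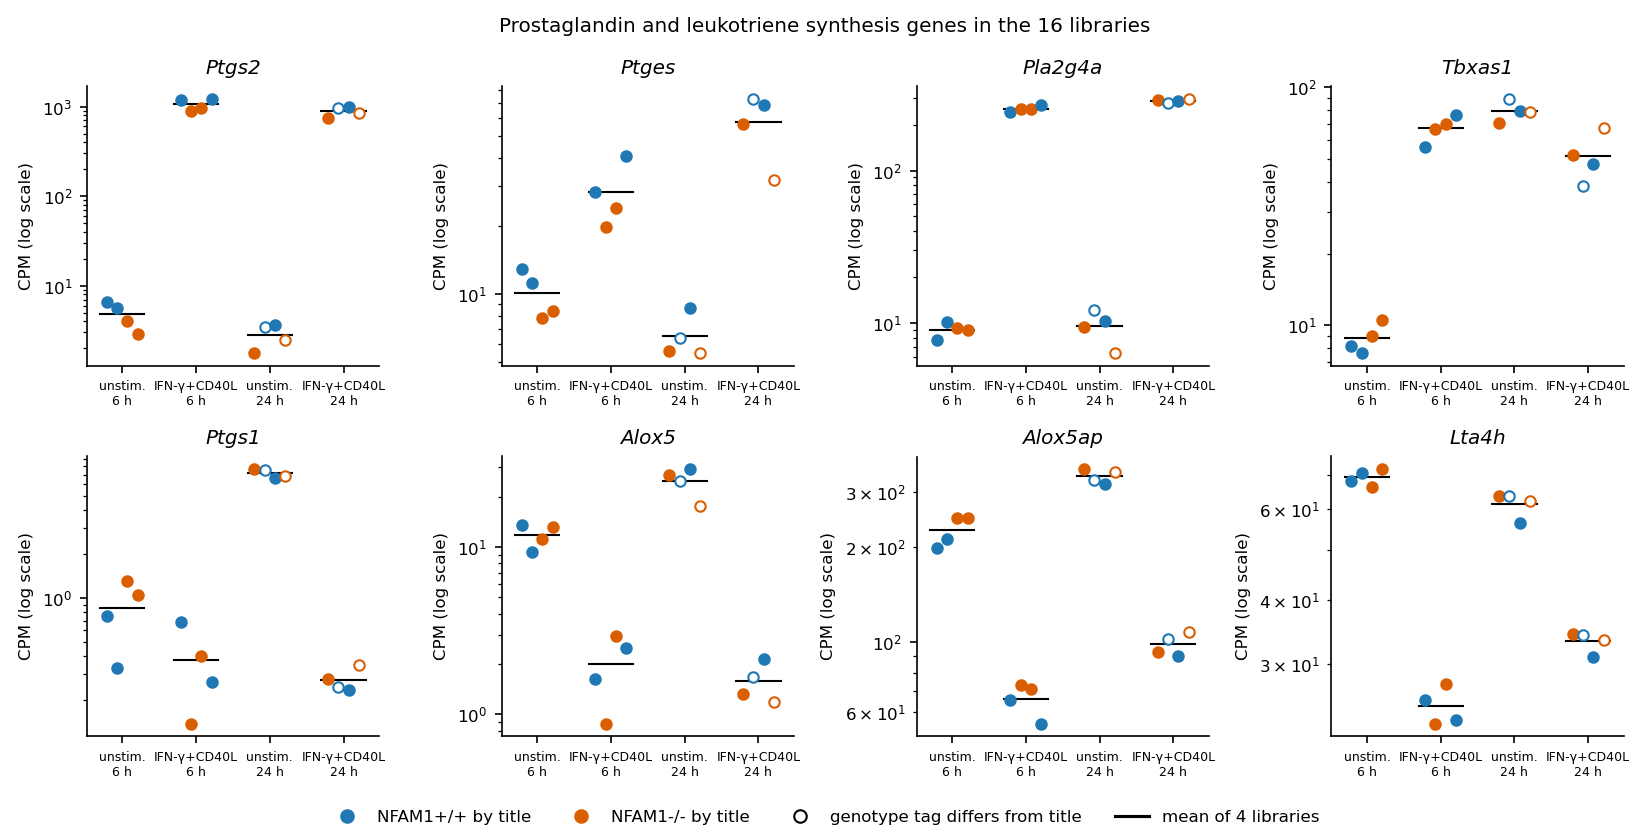
CPM of the 8 members in the 16 libraries on log axes, by stimulus and time. Blue and orange mark NFAM1+/+ and NFAM1-/- by title, open circles the 4 libraries whose tag names the other genotype, and lines the mean of 4 libraries. Ptgs2 and Pla2g4a separate by stimulus at both times, and Ptgs1 stands at 6.63 to 7.63 CPM only in unstimulated libraries at 24 h.

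Alox5, 5-lipoxygenase, fell with the stimulus. At 6 h it stood at 13.5, 9.36, 11.2 and 13.1 CPM without and at 2.49, 1.63, 0.882 and 2.96 CPM with the stimulus. At 24 h the unstimulated libraries stood at 24.9, 29.2, 27.1 and 17.7 CPM and the stimulated ones at 1.68, 2.14, 1.32 and 1.19 CPM. The conditions did not overlap at either time. The log2 fold change was -2.70 ± 0.30 at 6 h (adjusted p = 1.44e-06) and -3.98 ± 0.30 at 24 h (adjusted p = 2.65e-08). Without stimulus Alox5 rose 2.08-fold from 6 to 24 h (log2 fold change 1.06 ± 0.30, adjusted p = 0.00727), which fell short of 2-fold with a pseudocount of 1 CPM (0.99) and without library 2, 3, 43 or 45 (0.90 to 1.00). The difference of the response between the times, -1.28 ± 0.43 (adjusted p = 0.0161), was called but was lost with plain library totals (-0.89, adjusted p = 0.0746), without the 4 libraries of uncertain genotype (-1.37, adjusted p = 0.0714) and, by the fold threshold, without library 12 (-0.85).

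Alox5ap, the 5-lipoxygenase activating protein, was the most abundant transcript on the leukotriene side. On the authors' scaling it fell by nearly the same amount at both times. It ranged from 199 to 248 CPM without and from 55.1 to 73.1 CPM with the stimulus at 6 h, and from 318 to 354 CPM and from 90.6 to 108 CPM at 24 h. The log2 fold change was -1.78 ± 0.06 at each time (adjusted p = 5.68e-12 and 8.06e-12), and the difference between the times was 0.00 ± 0.09 (adjusted p = 0.97). Over the alternative ways of processing given below, this difference ranged from -0.088 to 0.40 (smallest adjusted p = 0.0023). With plain library totals the log2 fold change at 6 h was -2.51. From 6 to 24 h Alox5ap was higher by 0.57 ± 0.06 without and by 0.58 ± 0.06 with the stimulus, each short of 2-fold. The antisense gene Gm19719 shares 189 exon bases with it.

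Lta4h, leukotriene A4 hydrolase, was the second most abundant gene of the leukotriene side. It ranged from 66.3 to 71.8 CPM without and from 23.0 to 27.4 CPM with the stimulus at 6 h, and from 56.4 to 63.6 CPM and from 31.0 to 34.4 CPM at 24 h. Stimulated libraries were lower at each time without overlap. The log2 fold change was -1.48 ± 0.07 at 6 h (adjusted p = 8.66e-11), and -0.89 ± 0.07 at 24 h (adjusted p = 3.25e-08), which was short of 2-fold. The latter passed 2-fold with plain library totals (-1.22) and with quantile normalization (-1.08).

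In the comparison of 24 h with 6 h without stimulus 3 of the 8 members were called (Ptgs1, Tbxas1 and Alox5, all higher), against 21.0% of all genes. With the stimulus 1 of the 8 was called (Ptges, 1.01 ± 0.17, adjusted p = 7.78e-05), against 33.7% of all genes, and it fell short of 2-fold without library 10, 11, 55 or 56 (0.80 to 0.99). The response to the stimulus was called as different between the times for 4 members (Ptgs1, Tbxas1, Ptges and Alox5), against 31.5% of all genes. Lta4h (0.60 ± 0.10, adjusted p = 9.16e-05) and Ptgs2 (0.49 ± 0.16, adjusted p = 0.0150) passed limma's test but fell short of 2-fold. With quantile normalization Ptgs2 passed both thresholds (1.15, adjusted p = 5.18e-05). Ptgs1, Tbxas1, Alox5 and Alox5ap were all highest in the unstimulated libraries at 24 h. In the same libraries 8 of 10 neutrophil, 4 of 4 listed eosinophil and 4 of 5 listed platelet markers had their highest mean. So did 3 of 6 dendritic cell, 1 of 2 listed B cell, 3 of 8 monocyte and 2 of 8 basophil and mast cell markers. Of the listed erythroid and T and NK cell markers, 0 of 4 and 0 of 1 did. The share of all genes highest in these libraries was not computed. Among the neutrophil markers Csf3r stood there at a mean of 469 CPM, against 222 to 231 CPM in the other conditions, and Mmp8 at 154 CPM against 4.16 to 36.2 CPM, whereas Elane (2.45 CPM) and Mpo (4.28 CPM) were higher at 6 h in both conditions. The neutrophil-defining Ly6g stood at 1.75 CPM there and at 0.403 to 1.28 CPM in the other conditions. Of the platelet markers, Pf4 stood at 1.05 CPM there and at 0.036 to 0.172 CPM elsewhere, while Gp6 was near 0 there and stood at 3.87 CPM with the stimulus at 24 h, and the sum of the list, 6.75 to 8.89 CPM, overlapped that with the stimulus at 24 h (5.31 to 8.59 CPM). The part of these cell types in the results was not tested.

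Per kb of annotated exon, which allows levels of different genes to be compared, Alox5ap led without stimulus at 6 h with a mean of 169 ± 18.7 CPM per kb (SD, n = 4), followed by Lta4h at 34.1 ± 1.24. Alox5 (4.18 ± 0.68), Pla2g4a (2.97 ± 0.32), Tbxas1 (2.85 ± 0.41) and Ptges (2.76 ± 0.66) followed, the last 3 within their spread of each other. Ptgs2 (1.07 ± 0.36) and Ptgs1 (0.298 ± 0.146) came last. With the stimulus at 6 h the order began with Ptgs2 at 238 ± 36.7 CPM per kb, Pla2g4a at 83.0 ± 3.51 and Alox5ap at 49.1 ± 5.95, and ended with Alox5 at 0.705 ± 0.326 and Ptgs1 at 0.130 ± 0.082. At 24 h without stimulus Alox5ap stood at 250 ± 12.4 CPM per kb, Lta4h at 30.3 ± 1.70 and Tbxas1 at 25.6 ± 2.50, and Ptgs2 came last at 0.636 ± 0.196. With the stimulus at 24 h Ptgs2 (199 ± 26.2), Pla2g4a (93.8 ± 2.75) and Alox5ap (73.1 ± 5.97) led again, and Tbxas1 (16.5 ± 3.89), Lta4h (16.4 ± 0.77) and Ptges (15.8 ± 5.07) lay within their spread of each other.

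**Figure D3:**
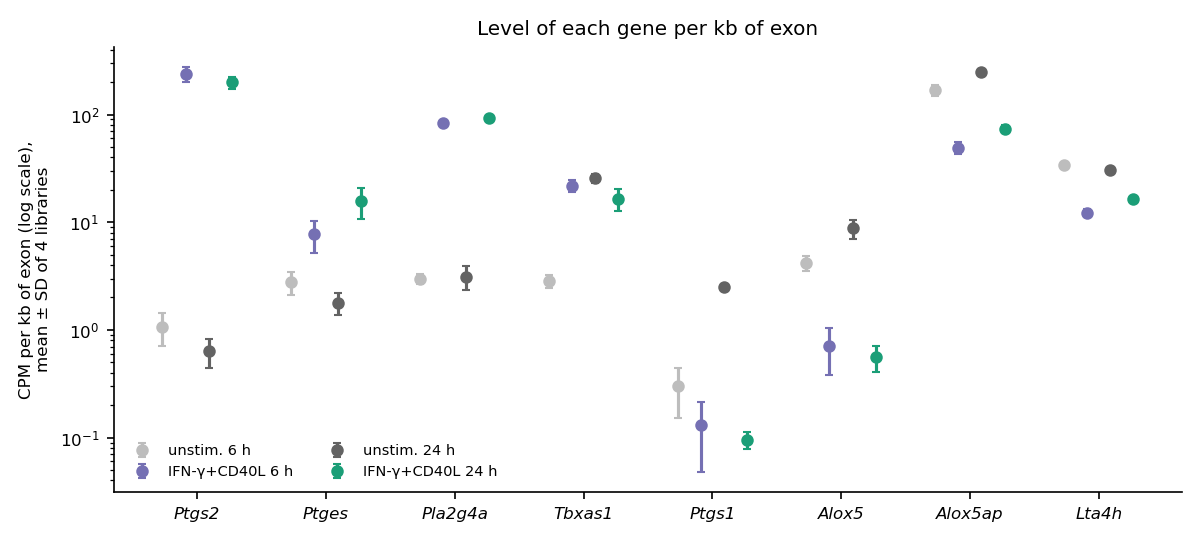
Mean level of each member in CPM per kb of exon on a log axis, with the SD of 4 libraries, in the 4 conditions. Ptgs2 moves from 1.07 to 238 CPM per kb at 6 h, and Alox5ap from 169 to 49.1.

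Among all genes tested, those whose log2 CPM followed Ptgs2 most closely over the 16 libraries were Psme2, Nod1, Snd1, Tnfaip2 and Tapbpl (Pearson's r from 0.9959 to 0.9971). Psme2 encodes a subunit of the proteasome activator and Nod1 a sensor of bacterial peptidoglycan. Alox5 was followed most closely by Ltbp3, Acss1, Prkar2b, Cnot6l and Fam20c (r from 0.9728 to 0.988). The libraries share 4 conditions of stimulus and time, so such values describe a common pattern over conditions.

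The other genes of the pathway, taken from lists of enzymes, receptors and transporters, numbered 46 in the table, of which 44 were tested. With the stimulus 5 were called higher and 16 lower at 6 h, and 7 higher and 20 lower at 24 h. Of all genes tested 19.1% were called higher and 20.6% lower at 6 h, and 14.6% and 18.7% at 24 h. The split depends on the scaling. With reads divided by the plain library total, a count added after the values were seen, 4 of the 44 were higher and 26 lower at 6 h (12.2% and 43.5% of all genes), and 4 were higher and 24 lower at 24 h (11.2% and 25.7% of all genes). The list of arachidonic acid release and re-esterification held 15 tested genes, with 3 higher and 5 lower at 6 h (median log2 fold change -0.40) and 5 higher and 3 lower at 24 h (median 0.09). Pla2g16, a phospholipase, rose from 3.67 ± 0.30 to 633 ± 50.9 CPM at 6 h (SD, n = 4; log2 fold change 7.43 ± 0.11) and from 5.80 ± 1.23 to 371 ± 45.3 CPM at 24 h (6.02 ± 0.11). Acsl1, an acyl-CoA synthetase that activates fatty acids, rose by 2.86 ± 0.13 at 6 h and by 4.48 ± 0.13 at 24 h on the log2 scale. Daglb, a diacylglycerol lipase, fell by 3.53 ± 0.10 and by 4.25 ± 0.10. Pla2g1b, a secreted phospholipase A2, was seen only in the 4 unstimulated libraries at 6 h (3.31 to 10.8 CPM, 2616 reads in all) and was at 0 reads in the other 12, so it was at least 476-fold lower with the stimulus at 6 h, against a floor of 3 reads over the 4 libraries.

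In prostanoid synthesis 6 other genes were tested, with 0 higher and 3 lower at 6 h (median -0.81) and 0 higher and 4 lower at 24 h (median -1.84), against 20.6% and 18.7% of all genes lower at these times. Hpgds, the haematopoietic prostaglandin D synthase, stood at 0.993 ± 0.309 and 0.709 ± 0.148 CPM at 6 h and at 37.8 ± 4.39 CPM without against 1.80 ± 0.28 CPM with the stimulus at 24 h (log2 fold change -4.40 ± 0.21). Akr1b3, an aldo-keto reductase, and Cbr1, a carbonyl reductase, fell at 24 h by 2.08 ± 0.05 and by 1.61 ± 0.19, and Fam213b fell at that time by 2.45 ± 0.34. Ptges2 and Ptges3, further prostaglandin E synthases named here after their values were seen, had log2 fold changes of 0.55 ± 0.10 and 0.66 ± 0.06 at 24 h, under 2-fold, and of -1.06 ± 0.10 (called) and -0.11 ± 0.06 at 6 h.

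Leukotriene synthesis and processing held 6 other tested genes, with 0 higher and 2 lower at 6 h (median -0.21) and 0 higher and 5 lower at 24 h (median -2.13). Of all genes 20.6% were lower at 6 h and 18.7% at 24 h, and with 6 genes the count at 6 h is near that background. Dpep2 and Dpep3, membrane dipeptidases of the family that cleaves leukotriene D4, fell by 3.33 ± 0.06 and by 4.41 ± 0.28 at 6 h. Ggt5, which cleaves leukotriene C4, fell by 4.68 ± 0.42 and Mgst3 by 2.23 ± 0.21 at 24 h. Stimulated libraries held 2 to 24 reads of Ggt5 at 24 h, so the size of its fall is uncertain. At 6 h Ggt5 stood at 0.436 ± 0.275 CPM without and 0.720 ± 0.062 CPM with the stimulus. Of the 2 genes on the list of other lipoxygenases and partners, 0 were called at 6 h (limma; unadjusted p = 1.14e-05 for Cotl1 and 0.90 for Alox15) and both were lower at 24 h (median -1.58), Alox15 at -1.88 ± 0.63 and Cotl1, which binds 5-lipoxygenase, at -1.29 ± 0.05.

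Of 7 receptors tested, 1 was higher and 3 lower at 6 h (median -0.10), and 2 were higher and 2 lower at 24 h (median -0.46). Over all genes 19.1% were higher and 20.6% lower at 6 h, and 14.6% and 18.7% at 24 h. Cysltr1 fell from 12.6 ± 2.33 to 3.82 ± 1.12 CPM at 6 h and from 21.8 ± 1.35 to 1.69 ± 0.65 CPM at 24 h, while Cysltr2 rose from 0.048 ± 0.033 to 4.42 ± 0.45 CPM at 6 h and from 0.145 ± 0.074 to 2.89 ± 0.46 CPM at 24 h. Unstimulated libraries held 0 to 8 reads of Cysltr2 at 6 h, so its fold change is uncertain. The prostaglandin E2 receptor genes Ptger2 and Ptger4 fell at 6 h (-1.43 ± 0.13) and at 24 h (-1.50 ± 0.08), respectively. Ptgir, the prostacyclin receptor, named after its values were seen, was lower at 6 h (-1.28 ± 0.13) and higher at 24 h (1.08 ± 0.13).

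Degradation and transport held 8 tested genes, with 1 higher and 3 lower at 6 h (median -0.88) and 0 higher and 4 lower at 24 h (median -1.08). The shares of all genes were 19.1% higher and 20.6% lower at 6 h, and 14.6% and 18.7% at 24 h. Hpgd, 15-hydroxyprostaglandin dehydrogenase, which inactivates prostaglandins, stood at 150 ± 40 CPM without and 2.28 ± 0.56 CPM with the stimulus at 6 h, and at 201 ± 48.0 and 0.533 ± 0.124 CPM at 24 h (log2 fold changes -6.04 ± 0.15 and -8.55 ± 0.15). The fall of Hpgd was the largest among the other pathway genes that had reads in all conditions. Cyp4f18, which oxidises leukotriene B4, fell by 1.21 ± 0.12 and by 2.81 ± 0.12, and the exporter gene Abcc2 fell by 3.35 ± 0.73 and by 5.85 ± 0.73. Stimulated libraries held 0 to 10 reads of Abcc2 at 24 h, so the size of its fall then is uncertain. Ptgr1, whose product acts in the breakdown of prostaglandins and leukotriene B4, fell by 1.49 ± 0.17 at 24 h. Abcc4, an exporter of prostaglandins that was named after its values were seen, was the gene called higher at 6 h (1.48 ± 0.07).

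**Figure D4:**
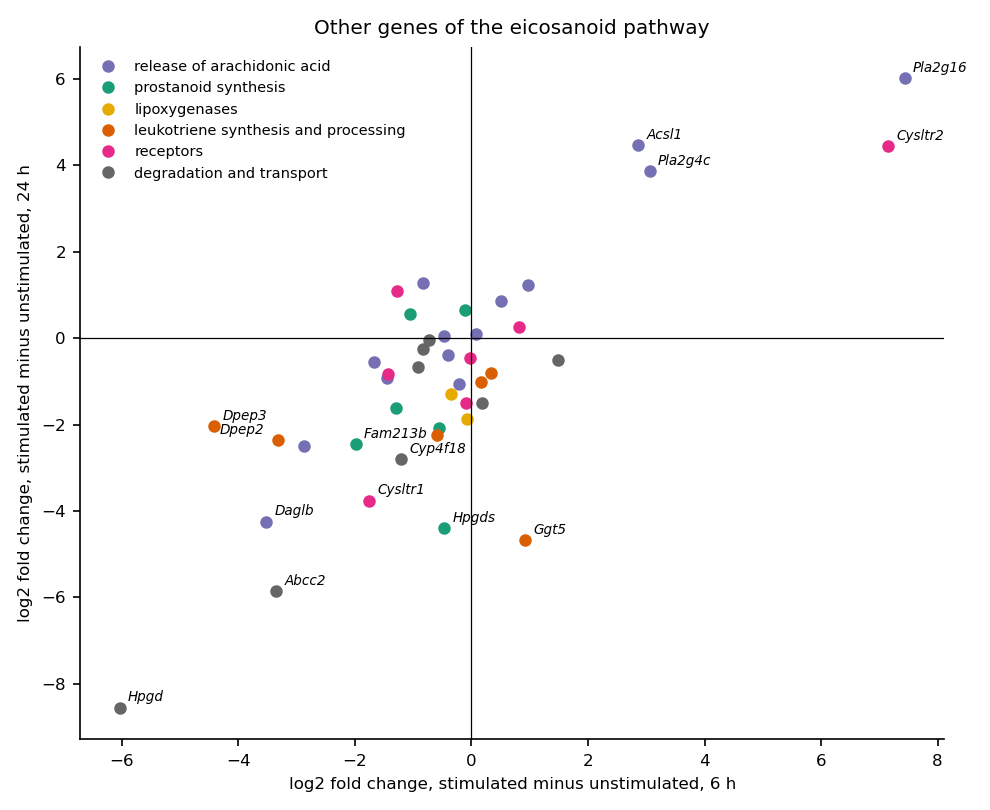
Log2 fold change with the stimulus at 24 h against that at 6 h for 43 other genes of the pathway, coloured by list. Pla2g1b, at 0 reads in 3 conditions, is left out. Pla2g16, Acsl1 and Cysltr2 lie at the upper right and Hpgd, at -6.04 and -8.55, at the lower left.

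The question of genotype was whether monocytes without full-length NFAM1 differ in these genes. None of the 8 members was called in any of the 4 comparisons of NFAM1-/- with NFAM1+/+ by limma, nor with voom weights on the recovered reads. Few genes were called at all, 0.0861% of all genes without and 0% with the stimulus at 6 h, and by title 0.289% without and 0.579% with it at 24 h. At an unadjusted p under 0.05 there were 3 members in each comparison at 6 h and 2 in each at 24 h. Of all 12782 genes tested, 1289 without and 1862 with the stimulus at 6 h were under it, and 1397 and 1988 at 24 h. The interaction of genotype and stimulus at 6 h was called for 0 members, with 1 (Ptgs1) at an unadjusted p under 0.05, and for 0% of all genes. For the interaction 1090 of the 12782 genes had an unadjusted p under 0.05. Of the 44 other pathway genes tested 1 was called in any genotype comparison, Ptgr1, which was lower in NFAM1-/- with the stimulus at 24 h by title (-1.26 ± 0.23, adjusted p = 0.0216). In that condition 1 library of each genotype carries the other genotype in its tag, and Ptgr1 ranged from 4.44 to 16.5 CPM over the libraries. Its difference by the tag was not examined.

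Ptgs2 was lower in NFAM1-/- in each condition by title, as the values above show. The log2 differences at 6 h were -0.83 ± 0.16 without (adjusted p = 0.0584) and -0.38 ± 0.16 with the stimulus (adjusted p = 0.30), and by title at 24 h -0.75 ± 0.16 without (adjusted p = 0.0437, short of 2-fold) and -0.31 ± 0.16 with it (adjusted p = 0.39). Ptges was also lower in each, by -0.57 ± 0.24 and -0.64 ± 0.24 at 6 h and by -0.43 ± 0.24 and -0.74 ± 0.24 at 24 h (adjusted p from 0.13 to 0.56). Without library 3, Ptgs2 passed the thresholds without stimulus at 6 h (-1.07, adjusted p = 0.0326), without library 46 it passed them without stimulus at 24 h (-1.0, adjusted p = 0.0403), and without library 55 Ptges passed them with the stimulus at 24 h (-1.16, adjusted p = 0.0136). By the tag, Ptgs2 at 24 h differed by -0.30 without and by -0.12 with the stimulus, and Ptges by -0.20 and by 0.46 (adjusted p = 1.00 for each). Without the 4 libraries in doubt, which leaves 1 library a group at 24 h, Ptgs2 differed by -1.05 (adjusted p = 0.20) and -0.42 and Ptges by -0.63 and -0.27. With 2 libraries against 2, libraries that do not overlap are common. This held for 5 of the 8 members without stimulus at 6 h (42.2% of all genes), for 3 with it (42.4%), and by title at 24 h for 5 without (45.4%) and for 6 with it (48.2%). By title, the same direction without overlap in all 4 conditions was found for 2 of the 8 members, Ptgs2 and Ptges, and for 1.42% of all genes. By the tag, the genotypes overlapped for both of these genes in both conditions at 24 h.

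A mean of the genotype difference over the 4 conditions was computed after these values were seen, and it called 0 of the 8 members at 2-fold, with 3 at an unadjusted p under 0.05, and 0.156% of all genes. By this mean 2221 of the 12782 genes had an unadjusted p under 0.05. The mean difference was -0.57 ± 0.08 for Ptgs2 (0.675-fold; adjusted p = 0.00386), -0.59 ± 0.12 for Ptges (0.662-fold; adjusted p = 0.0174) and 0.18 ± 0.05 for Alox5ap (1.13-fold; adjusted p = 0.0487). These values depend on the genotype of the 4 libraries in doubt. For Alox5ap the mean difference ranged from 0.137 to 0.209 over the alternatives given below (largest adjusted p = 0.537). By the tag the mean differences were -0.41 for Ptgs2 (adjusted p = 0.50) and -0.24 for Ptges (adjusted p = 0.695). Without those libraries they were -0.67 (adjusted p = 0.017) and -0.53 (adjusted p = 0.0969). Over the 8 libraries at 6 h, whose labels name 1 genotype each, the mean difference of both stimuli was -0.60 ± 0.11 for Ptgs2 (adjusted p = 0.0393), -0.61 ± 0.17 for Ptges (adjusted p = 0.12) and 0.27 ± 0.06 for Alox5ap (adjusted p = 0.0847). In that comparison 0 members were called at 2-fold, with 3 at an unadjusted p under 0.05, and 0.0469% of all genes were called. Of the 12782 genes, 1848 had an unadjusted p under 0.05 there. The direction of the other 5 members varied between conditions. The response of Ptgs2 at 6 h was 197-fold in NFAM1+/+ and 270-fold in NFAM1-/- libraries, a difference of 0.45 ± 0.23 on the log2 scale (adjusted p = 0.58).

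**Figure D5:**
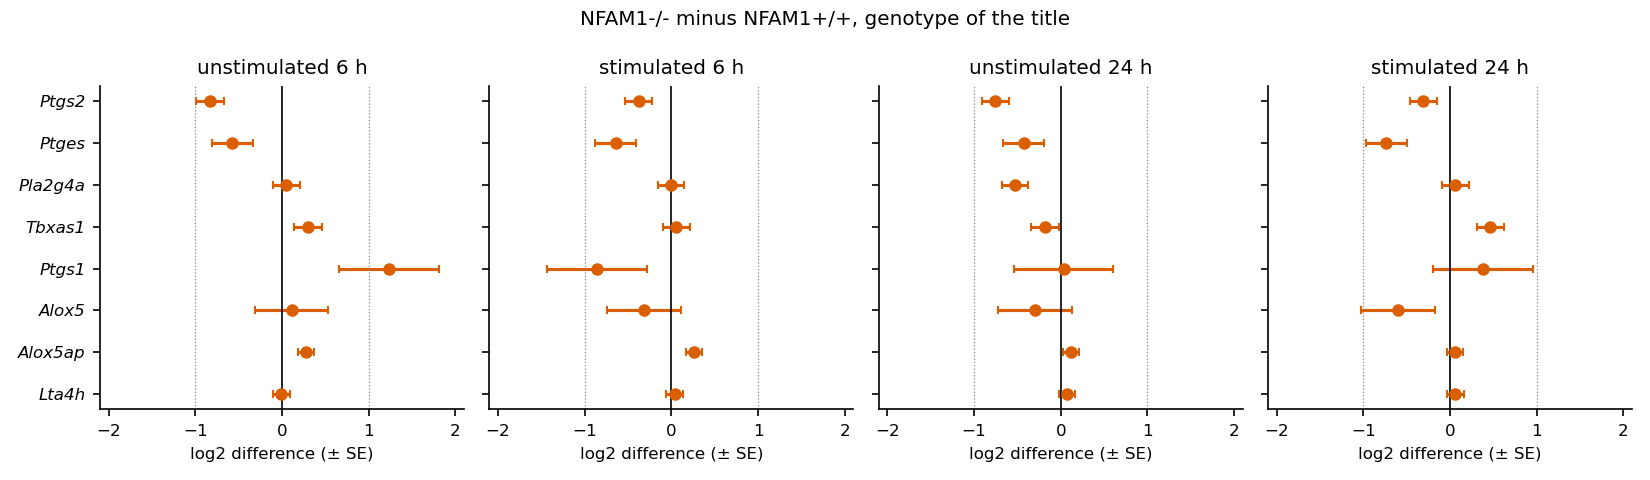
Log2 difference of NFAM1-/- minus NFAM1+/+ by title with its standard error, 2 libraries against 2, for the 8 members in the 4 conditions. Dotted lines mark 2-fold. Ptgs2 and Ptges lie left of 0 in all 4 panels, Ptgs2 between -0.83 and -0.31, and Ptgs1 ranges from -0.86 to 1.23.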

How the data were processed

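RNA of mouse monocytes, NFAM1+/+ or NFAM1-/-, was sequenced in 16 libraries after 6 or 24 h with or without IFN-γ plus CD40L. The authors aligned non-stranded poly(A) reads with STAR, counted them with Rsubread and normalized with edgeR. The submitters' notes name GRCm39 and mm39, and the tool versions and the filter on genes are not given in the sources used here. The deposited values are log2 CPM, equal to log2 of the reads plus 0.5 over a scaled library size, and 100% of values in every library gave back whole reads within 0.1. All 16 libraries were fitted together with limma 3.58.1 (R 4.3.3, eBayes with trend) as 8 groups of title genotype, stimulus and time, with 8 residual degrees of freedom. Genes had to reach 1 CPM in 2 libraries, which left out 303. Genes were called at an adjusted p under 0.05 and 2-fold. Fold changes are on the log2 scale with 0.5 reads added. No count model was run, but limma with voom weights from the recovered reads was among the alternatives. The fit was checked on simulated data. The members, marker and pathway lists were chosen with earlier results of these data known. All members are named, and of each pathway list up to 4 called genes with the largest change. Per-kb levels used exons of GENCODE vM21 (GRCm38). Alternatives were other scaling, filter, pseudocount, weights, groups, thresholds and the genotype tag, and leaving out each library. The genotype means over conditions were added after the values were seen.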

Additional observations from a re-analysis of the deposited data

Results flagged for a closer look

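The response to the stimulus was called as different between 24 and 6 h for 4 of the 8 members by the interaction test of limma, against 31.5% of all genes. The difference of the log2 fold changes was -3.58 for Tbxas1, -3.46 for Ptgs1, 1.63 for Ptges and -1.28 for Alox5. The call of Alox5 was lost with plain library totals, without the 4 libraries of uncertain genotype and without library 12. Lta4h (0.60) and Ptgs2 (0.49) passed the test but fell short of 2-fold.

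Among 32 sets of 4 libraries of 1 member in 1 stimulus and time, 1 held a library far from the others by Dixon's ratio, a number that chance alone would give, since about 1 set in 20 is flagged by chance. It was Lta4h without stimulus at 24 h, where library 45 stood at 5.82 log2 CPM (56.4 CPM) and the others at 62.4 to 63.6 CPM.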

How the results depend on the processing

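No called value of a member changed sign under any alternative. Of 2392 values of members under an alternative, 2274 kept their direction and their side of the thresholds, 20 lost a call, 22 gained one (16 of them when no minimum fold change was asked) and 76 values that were not called changed sign, 54 of them with 1 library left out. No paired analysis was possible because the library numbers are shared by no 2 groups.

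Dividing reads by the plain library total, in place of the deposited scaling, moved the median of all genes by -0.73 at 6 h and by -0.33 at 24 h for the stimulus, by 0.37 for time with the stimulus and by 0.40 for the interaction with time. The share of calls that were higher then fell from 48.1% to 21.9% at 6 h and from 43.9% to 30.4% at 24 h, and rose from 49% to 69.3% for time with the stimulus and from 42.1% to 67.4% for the interaction. With no minimum fold change the count of all genes called rose from 5069 to 10003 for the stimulus at 6 h, from 4256 to 9564 at 24 h, from 2684 to 8233 and from 4308 to 9763 for time without and with it, and from 4024 to 8588 for the interaction. A pseudocount of 1 CPM gave 1755 for time without stimulus. The genotype comparisons called 11, 0, 37 and 74 genes in the order of conditions used above, and over all alternatives 1 to 40, 0 to 126, 2 to 122 and 0 to 269. The interaction with stimulus called 0 to 55, the mean at 6 h 0 to 51 (main 6) and the mean of all 4 conditions 0 to 458 (main 20).

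With no minimum fold change 7 members were called for time without stimulus, 4 for time with it, 1 for genotype without stimulus at 24 h, and, in the means over conditions, 1 at 6 h and 3 over all 4. Lta4h and Ptgs2 were then also called for the interaction with time, and Lta4h and Tbxas1 for the stimulus at 24 h. Of all 12782 genes, 8233 and 9763 were then called for time without and with the stimulus. For genotype without stimulus at 24 h 122 were called, and in the means 49 at 6 h and 458 over all 4 conditions. For time with the stimulus 0 members were called with quantile normalization and 0 with a pseudocount of 1 CPM. Leaving out 1 library at a time gave 0 to 1 member called for time with the stimulus and 0 to 1 for genotype without stimulus at 6 h, without it at 24 h and with it at 24 h, 7 to 8 for the stimulus at 6 h, 6 for it at 24 h, 2 to 3 for time without stimulus and 3 to 4 for the interaction with time. With all libraries, 39.7% and 33.3% of all genes were called for the stimulus at 6 and 24 h. For time without and with it the shares were 21.0% and 33.7%, and for the interaction with time 31.5%.

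None of the values that changed sign passed the test (smallest adjusted p = 0.102). For time with the stimulus, Alox5 was 0.14, Ptgs1 0.15 and Ptgs2 0.12 with plain totals, and Ptgs1 was 0.085 and Ptgs2 0.23 with quantile normalization. For genotype at 6 h with plain totals, Lta4h was 0.0078 without stimulus and Pla2g4a 0.0061 with it. With quantile normalization Pla2g4a was -0.025 for time without stimulus, 0.018 for genotype with the stimulus at 6 h and 0.0056 for the interaction of genotype and stimulus, where Ptges was 0.018. By the tag at 24 h, without stimulus Alox5 was 0.19, Pla2g4a 0.40 and Tbxas1 0.0074, and with it Ptges was 0.46, Tbxas1 -0.34, Ptgs1 -0.12, Pla2g4a -0.042 and Alox5ap -0.021, and Pla2g4a was 0.10 in the mean of all 4 conditions. The interaction of Alox5ap with time was -0.088 without the 4 libraries in doubt and -0.00076 with a pseudocount of 1 CPM.

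Leaving out 1 library at a time gave these ranges across 0. For time, Pla2g4a ranged from -0.098 to 0.18 without stimulus, and with it Alox5 from -0.67 to 0.21 and Ptgs1 from -0.61 to 0.17. For the interaction with time, Alox5ap ranged from -0.058 to 0.067 and Pla2g4a from -0.0078 to 0.27. For genotype without stimulus at 6 h, Alox5 ranged from -0.16 to 0.37, Lta4h from -0.067 to 0.050 and Pla2g4a from -0.14 to 0.24. With the stimulus at 6 h, Alox5 ranged from -1.19 to 0.55, Lta4h from -0.088 to 0.17, Pla2g4a from -0.079 to 0.070 and Tbxas1 from -0.17 to 0.28. Without stimulus at 24 h, Alox5 ranged from -0.61 to 0.0071, Lta4h from -0.014 to 0.16 and Ptgs1 from -0.059 to 0.13, and with it Alox5ap from -0.048 to 0.17 and Lta4h from -0.011 to 0.13. For the interaction of genotype and stimulus, Alox5 ranged from -1.30 to 0.45, Alox5ap from -0.14 to 0.11, Lta4h from -0.079 to 0.18, Pla2g4a from -0.24 to 0.14 and Ptges from -0.34 to 0.20. For the mean at 6 h, Alox5 ranged from -0.54 to 0.33, Lta4h from -0.048 to 0.080, Pla2g4a from -0.073 to 0.12 and Ptgs1 from -0.20 to 0.58. The cause of these changes was not tested. With 2 libraries a group precision is limited, and Ptgs1 also rests on few reads, 8 to 149 a library at 6 h and 15 to 27 with the stimulus at 24 h.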

Other observations

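Pla2g1b had 2616 reads in the 4 unstimulated libraries at 6 h, of both genotypes, and 0 reads in the 4 unstimulated libraries at 24 h and in the 8 stimulated libraries. Its level in the former ranged from 3.31 to 10.8 CPM.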
